A study of Mus musculus with 3 samples.

Results

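The BCL2 family was followed through 10 genes in T-helper 1 (Th1) cells, helper T cells known for making interferon gamma. The genes were chosen by symbol. They are 4 anti-apoptotic genes (Bcl2, Bcl2l1, Mcl1 and Bcl2a1b), 2 effectors (Bax and Bak1) and 4 genes of BH3-only proteins (Bcl2l11, Bad, Bbc3 and Pmaip1), out of 50600 genes counted and 21764 protein-coding ones. All 10 were found once in the counted annotation. RNA came from primary Th1 cells of the mouse strain C57BL/6NJ, which the labels link to a protocol for differentiating CD4 T cells and give no age or sex for. Names in the file headers carry 72 hours and the word sorted. There was 1 group of 3 libraries, numbered as biological replicates but with the same donor record, and no second condition. Every p-value below comes from these libraries alone, and their differences may be technical. Those for a gene between libraries set its counts against counting error. Those for pairs of genes use a spread between libraries that is pooled in part over all genes, so they do not measure the spread of the pair alone.

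The family sets the threshold at which a cell commits to death through its mitochondria. BAX and BAK1 form the pores in the outer mitochondrial membrane that release cytochrome c. BCL2, BCL-XL (the main product of Bcl2l1), MCL1 and A1 (the product of the Bcl2a1 genes) hold them back, and BH3-only proteins such as BIM (the product of Bcl2l11), PUMA (Bbc3), NOXA (Pmaip1) and BAD occupy the groove of these guards. In T cells, cytokines such as interleukin 2 keep the guards expressed, and BIM is known as the main trigger of death once an antigen response ends.

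Each level is in TPM, a gene's share of the transcripts in a library after division by exon length, so that genes can be compared. Libraries held 4482916, 266790 and 3733531 counts in replicates 1, 2 and 3, and the 10 genes together held 3091, 142 and 1693 of these. Replicate 2 is thus the weakest source. A gene there had between 0 and 34 counts, and 2 of the 10 had none. Fragments were counted on 1 strand, with the setting that takes the first read to lie on the strand of the gene. Which strand the library kit reads first is not given in the sources used here. A level may therefore come from the RNA of that strand or from the opposite one. Marker genes of T cells (5 of 5) and of Th1 cells (5 of 5, and 4 of 5 without replicate 1) reached 1 TPM. Of the markers of other lineages, 1 of 5 for B cells (Cd79a), 1 of 2 for CD8 T cells (Cd8b1), 0 of 5 for myeloid cells and 0 of 3 for natural killer cells did. Ms4a1, Cd8a, Lyz2 and Ncr1 were at 0 counts in all libraries. In RNA from bulk cells, fewer cells that use a gene and less RNA per cell cannot be told apart.

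1 member needs its sequence to be read correctly. Bcl2a1b is one of several tandem copies of the A1 gene on mouse chromosome 9. The coding sequences of Bcl2a1b, Bcl2a1d and Bcl2a1a are each 519 bases, and they differ from each other at 6 to 11 positions. Bcl2a1b and Bcl2a1d were 98.8% identical, Bcl2a1b and Bcl2a1a 97.9%, and Bcl2a1d and Bcl2a1a 98.7%. The first 120 coding bases hold 7 of the 12 positions at which the 3 are not all the same, a number that no other stretch of that length exceeds. They are shown with these positions in capitals. They lie at chr9:89199360-89199479 on the plus strand for Bcl2a1b, chr9:88731600-88731719 on the minus strand for Bcl2a1d and chr9:88957051-88957170 on the plus strand for Bcl2a1a (GRCm38, GENCODE mouse release 21).
Bcl2a1b: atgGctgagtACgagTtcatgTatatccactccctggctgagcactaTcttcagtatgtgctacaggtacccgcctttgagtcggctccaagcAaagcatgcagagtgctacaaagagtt
Bcl2a1d: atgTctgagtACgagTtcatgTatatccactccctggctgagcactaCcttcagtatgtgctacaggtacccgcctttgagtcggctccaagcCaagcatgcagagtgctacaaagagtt
Bcl2a1a: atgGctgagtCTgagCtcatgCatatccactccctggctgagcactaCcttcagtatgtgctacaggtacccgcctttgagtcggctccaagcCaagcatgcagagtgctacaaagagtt

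Of all 50-base windows in the Bcl2a1b transcript, 57.6% also occur in another A1 copy. In addition, 401 of its 817 exon bases (49.1%), all coding, lie in exons of Gm29094 on the same strand, and 79.2% of its windows occur in at least 1 other gene of either kind. The counting command in the headers names no option for fragments that map to several places or fall in several genes. A level of Bcl2a1b or of its copies is therefore uncertain. If such fragments were left uncounted, the level is too low, because the shared bases stay in the exon length. The same would hold for other members with bases shared on the same strand or at another place in the genome. Windows were matched on both strands, so their share also holds stretches that only face a gene on the other strand. Such a stretch does not by itself place a fragment in several genes when 1 strand is counted. For 4 members no window was shared (Bcl2l1, Mcl1, Bbc3 and Pmaip1), and in Bcl2l11 0.135% were. For the other 4, the share was 5.25% in Bcl2, 8.51% in Bax, 17.1% in Bak1 and 17.2% in Bad. The only partner was Gm45808 for Bax, on the same strand, and Ggnbp1 for Bak1 and Gpr137 for Bad, on the other strand. These genes are described below. Windows of Bcl2 were shared with 495 genes, among them D630008O14Rik on the other strand.

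Among the guards of survival, Mcl1 was the highest and the highest of all 10 members in each library. MCL1 is a short-lived protein on which T cells are known to depend. Mcl1 had 109, 77.0 and 61.2 TPM in replicates 1, 2 and 3 (mean 82.4 ± 24.3, SD, n = 3), on 779, 34 and 426 counts. Its mean ranked above 94.9% of protein-coding genes, and it made up 24.0%, 24.1% and 23.8% of the summed level of the 10 genes. That share differed by less between libraries than the level itself did, as shifts common to all members cancel in a share. It did so too for Bcl2l1 (16.7% ± 0.731) and Bax (17.8% ± 1.02). The gene (ENSMUSG00000038612.16) lies on chromosome 3 from 95658788 to 95663176 on the plus strand, in coordinates of the build mm10 that apply to all members, with no exon overlap on the other strand.

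Bcl2l1, whose long product BCL-XL is induced when T cells are costimulated, came next with 79.7, 52.3 and 41.7 TPM (57.9 ± 19.6), on 764, 31 and 389 counts. It lies on chromosome 2 from 152780668 to 152831728 on the minus strand (ENSMUSG00000007659.18). Gene counts do not separate BCL-XL from the short pro-death form made by splicing of the same gene. Bcl2, the founding member and the guard typical of resting and memory T cells, had 30.2, 28.7 and 17.2 TPM (25.4 ± 7.16), on 579, 34 and 320 counts. It was below Mcl1 and Bcl2l1 in each library. Bcl2 (ENSMUSG00000057329.7) spans chromosome 1 from 106538178 to 106714274 on the minus strand. Bcl2a1b, a target of NF-kappaB in activated lymphocytes, had 21.7, 0 and 10.2 TPM (10.6 ± 10.8), on 37, 0 and 17 counts. The gene (ENSMUSG00000089929.1) lies on chromosome 9 from 89199209 to 89207827 on the plus strand. Its 0 counts in replicate 2 allow up to 28.4 TPM, the level of 3 counts there, so a lower level in that library was not detectable at this depth. Without replicate 1 its mean was 5.11 TPM and without replicate 2 it was 15.9.

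The effectors stood among the highest members. Bax had 82.8, 58.9 and 42.7 TPM in replicates 1, 2 and 3 (61.5 ± 20.2), on 273, 12 and 137 counts. It was second in each library. Of its exon bases, 192 (12.2%) also belong to Gm45808 on the same strand, which had 0 counts. Bax (ENSMUSG00000003873.11) lies on chromosome 7 from 45461697 to 45466898 on the minus strand. Bak1 had 61.6, 51.4 and 36.1 TPM (49.7 ± 12.8), on 310, 16 and 177 counts, and held rank 4 in each library. Bak1 (ENSMUSG00000057789.13) lies on chromosome 17 from 27019810 to 27029009 on the minus strand. By mean, Bax ranked above 93.2% and Bak1 above 91.5% of protein-coding genes.

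The BH3-only genes covered a wide range. Bad, whose protein is held in the cytosol by 14-3-3 proteins when growth factor kinases are active, had 37.9, 27.0 and 28.9 TPM (31.3 ± 5.82), on 159, 7 and 118 counts. Bad (ENSMUSG00000024959.13) lies on chromosome 19 from 6941861 to 6951898 on the plus strand. Pmaip1, whose protein NOXA binds MCL1, had 14.3, 20.5 and 6.12 TPM (13.6 ± 7.20), on 79, 7 and 33 counts. It was the 1 member with its highest TPM in replicate 2, where its 95% counting interval ran from 8.23 to 42.2 TPM. Pmaip1 (ENSMUSG00000024521.7) lies on chromosome 18 from 66458604 to 66465550 on the plus strand. Bbc3, a target of p53, had 14.4, 3.64 and 11.8 TPM (9.95 ± 5.61), on 64, 1 and 51 counts. Its single fragment in replicate 2 has an interval from 0.0923 to 20.3 TPM, which spans the levels of the other libraries. Bbc3 (ENSMUSG00000002083.13) lies on chromosome 7 from 16308393 to 16318205 on the plus strand.

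Bcl2l11 was the lowest member. It had 2.80, 0 and 1.53 TPM (1.443 ± 1.402), on 47, 0 and 25 counts. In replicate 2, 0 counts allow up to 2.89 TPM, above the level in the other libraries, so a lower level in that library was not detectable. Without replicate 2 its mean was 2.16 TPM, and without replicate 1 it was 0.764. The gene (ENSMUSG00000027381.16) spans chromosome 2 from 128126038 to 128162547 on the plus strand, with 8029 exon bases, the second longest of the 10 after Bcl2 (9157).

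**Figure D1:**
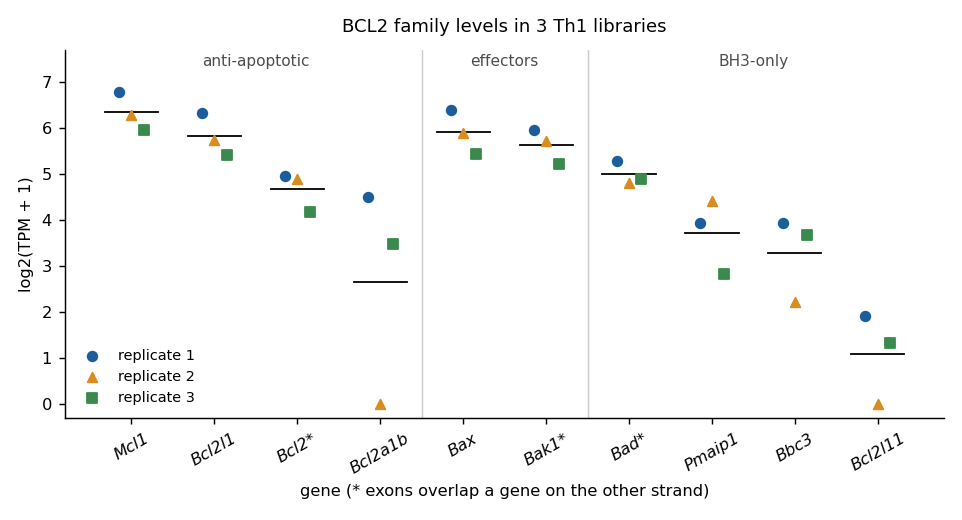
Level of each member on the log2(TPM + 1) scale (vertical axis) by gene (horizontal axis), 1 symbol per library and a bar at the mean of the 3 log values. Mcl1 is at the top in each library and Bcl2l11 at the bottom in replicates 1 and 3, and Bcl2a1b and Bcl2l11 are at 0 in replicate 2.

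All 10 members reached a mean of 1 TPM and 8 reached 10 TPM, where 47.8% and 27.3% of all protein-coding genes did. The 2 below 10 TPM were Bbc3 and Bcl2l11. The levels themselves depend on the scale: over genes without overlap, Bbc3 averaged 31.3 TPM and Bcl2l11 4.42. Without replicate 1, 9 members reached 1 TPM. The median over members was 28.3 TPM, against 12.8 TPM over the 10408 protein-coding genes that reached 1 TPM and 0.634 over all protein-coding genes. The order by mean was Mcl1, Bax, Bcl2l1, Bak1, Bad, Bcl2, Pmaip1, Bcl2a1b, Bbc3 and Bcl2l11. Ranges over libraries overlapped for each pair of neighbours but Bbc3 and Bcl2l11. For that pair, replicate 2 held 1 count of Bbc3 against 0 of Bcl2l11, so its gap there is not firm. Compared within libraries, 5 steps exceeded the SD of the difference (Mcl1 over Bax, Bax over Bcl2l1, Bak1 over Bad, Bcl2 over Pmaip1 and Bbc3 over Bcl2l11), each in 3 of 3 libraries. Bcl2l1 over Bak1 (8.16 ± 8.90 TPM), Bad over Bcl2 (5.87 ± 6.90), Pmaip1 over Bcl2a1b (3.00 ± 15.2) and Bcl2a1b over Bbc3 (0.677 ± 5.78) did not. The first of these had the same sign in 3 of 3 libraries, Bad over Bcl2 in 2 of 3, and the last pair of steps in 1 of 3.

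Summed by role, the guards had 241, 158 and 130 TPM, the effectors 144, 110 and 78.8, and the BH3-only genes 69.4, 51.1 and 48.3 in replicates 1, 2 and 3. The guards made up 51.0% ± 1.78 of the members' sum, the effectors 32.3% ± 2.01 and the BH3-only genes 16.7% ± 1.85 (SD, n = 3). The guards' sum was 3.09 ± 0.386 times that of the BH3-only genes and 1.04 ± 0.0749 times that of both other roles together. These sums weigh mRNA only, and most of the guards' sum came from Mcl1 and Bcl2l1. They cover the chosen members alone, and the ratios depend on that choice. Bid, a BH3-only gene described below, is not in them and had 37.2, 52.3 and 35.7 TPM in replicates 1, 2 and 3. Adding it would lower both ratios.

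Exons of 3 members overlap those of a gene on the other strand, where the counted strand decides which gene receives a fragment. The stretch is in the untranslated part of Bcl2 (558 bases between 106541943 and 106542671 of chromosome 1, facing D630008O14Rik). In Bak1 it spans 357 bases between 27022439 and 27029009 of chromosome 17, 143 of them coding, facing Ggnbp1. In Bad it is 517 bases from 6941924 to 6942440 of chromosome 19, 118 of them coding, facing Gpr137. The facing gene was the higher one for 2 of the 3. D630008O14Rik, annotated as antisense, had 264, 343 and 420 TPM in replicates 1, 2 and 3, on 1133, 91 and 1759 counts, which is 8.72, 11.9 and 24.5 times the level of Bcl2. Ggnbp1, a gene known from the male germ line, had 103, 79.1 and 151 TPM, which is 1.67, 1.54 and 4.17 times the level of Bak1. Gpr137 had 19.0, 16.8 and 20.6 TPM, below Bad in each library.

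In TPM over all genes, the facing genes were higher in replicate 3 than in replicate 1, and their members were lower. D630008O14Rik was 1.59-fold of its level in replicate 1 and Ggnbp1 1.46-fold, while Bcl2 was 0.568-fold and Bak1 0.586-fold. Gpr137 was 1.08-fold and Bad 0.762-fold. The median over genes without overlap was 0.587-fold, so the fall of Bcl2 and Bak1 was near that of such genes. Scaled over genes without overlap, Bcl2 was 0.892-fold, Bak1 0.922-fold and Bad 1.20-fold. That scale leaves the ratio of each facing gene to its member within a library unchanged. Genes with an opposite-strand overlap held 66.5% of all counts in replicate 3 and 51.7% in replicate 1. Their part in the levels of Bcl2, Bak1 and Bad was not tested.

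**Figure D2:**
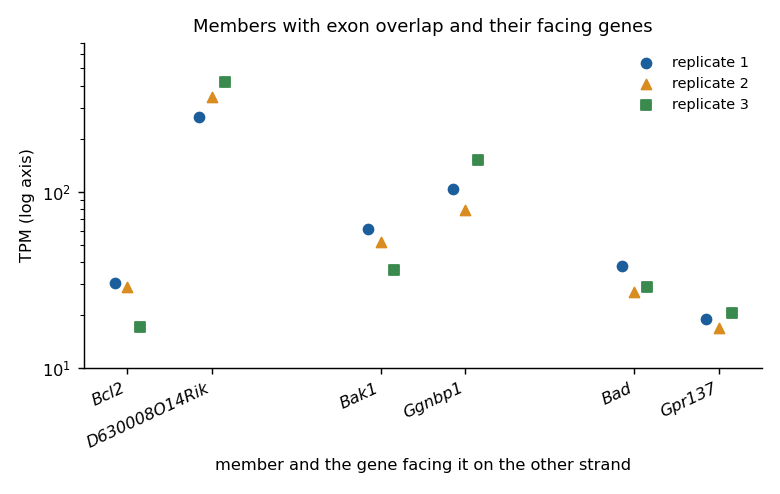
TPM on a log axis (vertical) of the 3 members whose exons face another gene and of that gene (horizontal axis), 1 symbol per library. D630008O14Rik lies above Bcl2 and Ggnbp1 above Bak1 in each library, both facing genes are highest in replicate 3, and Gpr137 lies below Bad.

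How far the members differed between libraries depended on the scale. In TPM over all genes, 9 of the 10 were highest in replicate 1 and all 10 were lower in replicate 3 than in replicate 1, where 76.1% of all genes tested and 93% of genes without overlap also were lower. The median level in replicate 3 was 0.554-fold that in replicate 1, with a range from 0.429-fold (Pmaip1) to 0.818-fold (Bbc3), against 0.587-fold over 6933 genes without overlap. With TPM scaled over genes without overlap alone, the members' median was 0.871-fold (0.674 to 1.29), against 0.922-fold over these genes. Of the 10, 8 were then lower in replicate 3, against 64.8% of genes without overlap. Bad (1.20-fold) and Bbc3 (1.29-fold) were higher there. The members' order by mean was the same on both scales, and within a library a change between these scales cannot alter it. The summed level of the 5 T-cell markers was 603 TPM in replicate 3 and 1225 in replicate 1, that of the 5 Th1 markers 496 and 1132, and that of the 5 B-cell markers 10.4 and 5.28. Scaled over genes without overlap, the sums in replicates 3 and 1 were 2417 and 3124 for T-cell markers, 1987 and 2887 for Th1 markers, and 41.9 and 13.5 for B-cell markers. Their part in the members' levels was not tested.

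**Figure D3:**
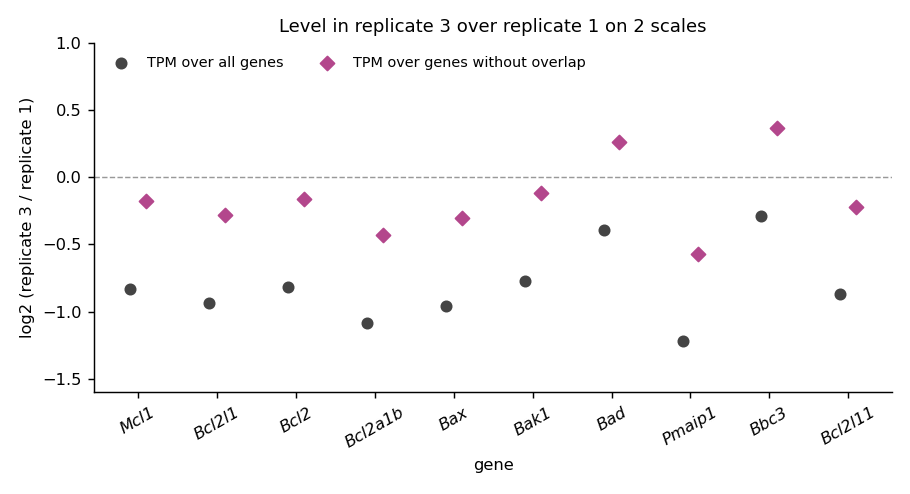
Level in replicate 3 over replicate 1 on a log2 scale (vertical axis) for each member (horizontal axis), with TPM over all genes (circles) and over genes without opposite-strand overlap (diamonds). All 10 circles lie below 0, while the diamonds of Bad and Bbc3 lie above it.

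A test over all genes asked whether any member differed between libraries by more than counting error. It compared the 3 counts of a gene with TMM-scaled library sizes by chi-square. A gene passed when its adjusted p was under 0.05 and its highest library reached at least 2 times its lowest, with 3 counts in place of fewer. Pmaip1 passed, 1 of 10 members, against 29.5% of 11595 genes tested. On TMM-scaled CPM it had 16.7, 24.5 and 9.95 in replicates 1, 2 and 3, a ratio of 2.46 between replicates 2 and 3 (chi-square test over all genes, adjusted p = 0.029). It rested on 7 counts in replicate 2. Without replicate 2 the ratio was 1.55 (adjusted p = 0.0801) and 0 of 10 members passed, against 14.9% of genes. The call was also lost without replicate 1 (adjusted p = 0.0806), without replicate 3 (0.479), on genes without overlap (0.196) and with TMM factors from genes of a mean count of at least 10 (0.112).

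Whatever the ratio, 5 members had an adjusted p under 0.05, where 55.5% of genes did. Besides Pmaip1 these were Bcl2l1 (ratio 1.49, chi-square adjusted p = 1.93e-06), Mcl1 (1.39, adjusted p = 0.000232), Bcl2 (1.27, adjusted p = 0.00609) and Bax (57.8, 42.1 and 41.3 TMM-scaled CPM in replicates 1, 2 and 3, adjusted p = 0.00988). Each was highest in replicate 1, and their ratios stayed under 1.5 with TMM scaling. Scaled by library totals, the ratios were 1.51 (Bcl2), 1.64 (Bcl2l1), 1.52 (Mcl1) and 1.66 (Bax), with chi-square adjusted p up to 1.8e-05. These calls rested on the libraries and the scaling. By the same chi-square test, all 4 were lost without replicate 1 (adjusted p from 0.37 to 0.97) and without replicate 3 (0.109 to 0.912), and Bcl2 was lost without replicate 2 (adjusted p = 0.0569). On genes without overlap, Mcl1 (chi-square adjusted p = 0.201) and Bax (0.301) were lost and Bcl2 was not tested. With TMM factors from genes of a mean count of at least 10, Bcl2 (chi-square adjusted p = 0.339), Mcl1 (0.0816) and Bax (0.166) were lost. Bcl2l1 was called on both of these scalings (chi-square adjusted p = 0.0309 and 0.00512). Bcl2l1 had 162, 109 and 117 TMM-scaled CPM, and Mcl1 165, 119 and 128. For Bak1 (adjusted p = 0.126), Bad (0.645), Bbc3 (0.309), Bcl2a1b (0.178) and Bcl2l11 (0.197) the test did not pass. Scaled by library totals instead, Bak1 had a ratio of 1.46 (chi-square adjusted p = 0.000661), and the other 4 of these did not pass there either.

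Ratios between members of one role, or of opposing roles, were compared within each library in 11 fixed pairs. Limma's moderated test, fitted over all genes against the same denominator with adjustment over all of them, set the mean log2 ratio of TPM + 1 against 0. The first gene of the pair was higher by this test in 9 pairs and the second in 0. The pairs were chosen with earlier results of these data known, so this tally is a description. Most of the 9 share the denominator Bcl2l11 and are not separate results. An exact sign-flip test of a single pair cannot go below p = 0.25 with 3 libraries. Against Bcl2, 60% of genes differed in level, 22.2% being above it and 37.8% below. Mcl1 was higher by a log2 ratio of 1.66 (1.82, 1.39 and 1.78 in replicates 1, 2 and 3; limma adjusted p = 0.00917). Bcl2l1 was higher than Bcl2 by 1.15 (1.37, 0.84 and 1.23; limma adjusted p = 0.0202). Both were called without replicate 2 and were lost without replicate 1 (limma adjusted p = 0.089 for Mcl1, 0.161 for Bcl2l1) and without replicate 3 (0.0501 and 0.104). Bcl2a1b over Bcl2 gave -2.02 (limma adjusted p = 0.17) and -0.58 without replicate 2, where Bcl2a1b had no counts. Bcl2a1b was below Bcl2 in replicates 1 and 3, but its level is uncertain because of its shared sequence. Replicate 2 cannot decide, since 3 counts of Bcl2a1b there equal 28.4 TPM, near the 28.7 TPM of Bcl2.

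Against Bcl2l11, a level that 76.8% of genes exceeded in the same test, all 6 members compared were higher in 3 of 3 libraries. For Bbc3, replicate 2 rests on 1 count against 0. Mcl1 was higher than Bcl2l11 by a log2 ratio of 5.25 (limma adjusted p = 1.45e-09), Bcl2l1 by 4.74 and Bcl2 by 3.59 (limma adjusted p = 5.04e-06). Without replicate 2, where Bcl2l11 had no counts, the ratios were 4.74, 4.24 and 2.94. With a pseudocount of 0.1 in place of 1 they were 6.69, 6.17 and 4.99 over all 3 libraries, so their size depends on the pseudocount. Among the BH3-only genes, Bad exceeded Bcl2l11 by 3.91 (limma adjusted p = 8.95e-07) and Bbc3 did by 2.19 (limma adjusted p = 0.00235). Pmaip1 exceeded it by 2.64 (limma adjusted p = 0.000508), and by 1.75 without replicate 2. All 6 calls held without replicate 1, without replicate 2 and without replicate 3, with limma adjusted p up to 0.0439 (Bbc3 without replicate 3).

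The effectors were close in level. Bax over Bak1 gave a log2 ratio of 0.28 ± 0.12 (SD, n = 3), with 0.42, 0.19 and 0.24 in replicates 1, 2 and 3. Limma's moderated SE, which draws in part on the variance of all genes against Bak1, was 0.21. The pair did not pass (limma adjusted p = 0.272), which does not show that the levels are equal. Of all genes, 74.1% differed from Bak1, 13.3% being above it and 60.8% below. For the pair of MCL1 and its partner NOXA, Mcl1 exceeded Pmaip1 by 2.61 (2.85, 1.86 and 3.13; limma adjusted p = 0.0125), where 34.9% of genes differed from Pmaip1, 25.7% above it and 9.25% below. That call was lost without replicate 1 (limma adjusted p = 0.137) and without replicate 3 (0.0685), with ratios of 2.49 and 2.35.

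**Figure D4:**
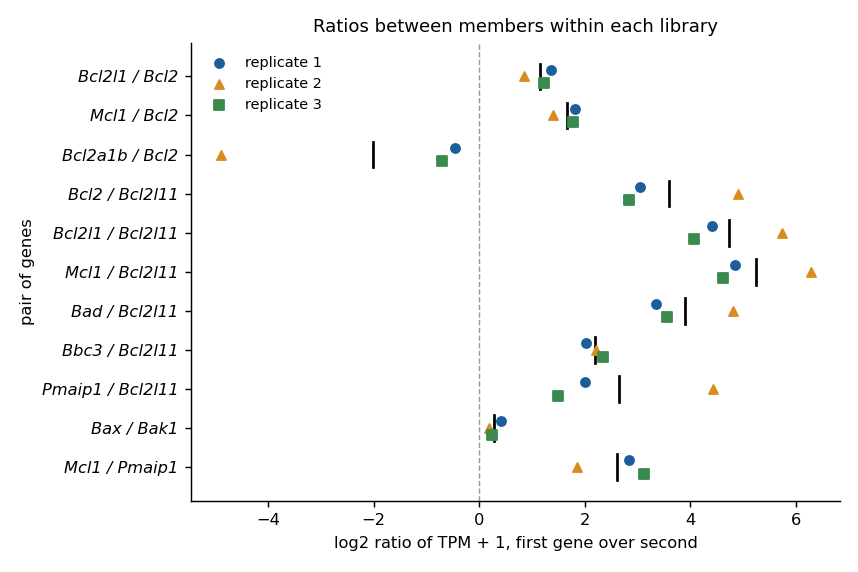
Log2 ratio of TPM + 1 of the first gene over the second (horizontal axis) in each of 11 pairs (vertical axis), 1 symbol per library and a bar at the mean. All pairs but Bcl2a1b over Bcl2 lie above 0 in 3 of 3 libraries, and replicate 2 lies farthest from 0 in the pairs with Bcl2a1b or Bcl2l11 other than Bbc3 over Bcl2l11.

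Beyond the 10, a list of 16 other genes of the family or named after it was described. Of these, 8 reached 1 TPM, 5 reached 10 TPM and 3 had 0 counts. With replicate 2 left out, 10 reached 1 TPM. The median was 1.01 TPM over all 3 libraries. Bid, the BH3-only gene that links death receptors to mitochondria, had 37.2, 52.3 and 35.7 TPM in replicates 1, 2 and 3 (41.7 ± 9.20), above each of the 4 BH3-only members by mean. Bid, Bcl2l13 (10.5 ± 4.53) and Bcl2l12, the highest of the list at 89.2 ± 31.7, all overlap another gene on the other strand. The mitophagy receptors Bnip3l (31.3 ± 16.0 TPM) and Bnip3 (overlapped, 27.9, 23.9 and 11.3 TPM) also passed 10 TPM.

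Other guard genes had lower means than the 4 described first. Bcl2l2, which encodes BCL-W, had 7.72, 0 and 5.83 TPM, and Bcl2l10 had 0 counts in each library. Of the A1 copies, Bcl2a1d had 17, 0 and 12 counts (5.42 ± 4.87 TPM), while Bcl2a1a and the shorter Bcl2a1c had 0 counts. Given the sequences above, the split between copies is uncertain. The third effector-like gene, Bok, had 0, 0 and 6 counts. Among further BH3-only genes, Bmf had 15, 0 and 7 counts, Bik 4, 0 and 3, and Hrk, known from neurons, 1, 0 and 0. Bcl2l14 had 13, 0 and 8 counts and Bcl2l15 3, 0 and 3.

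**Figure D5:**
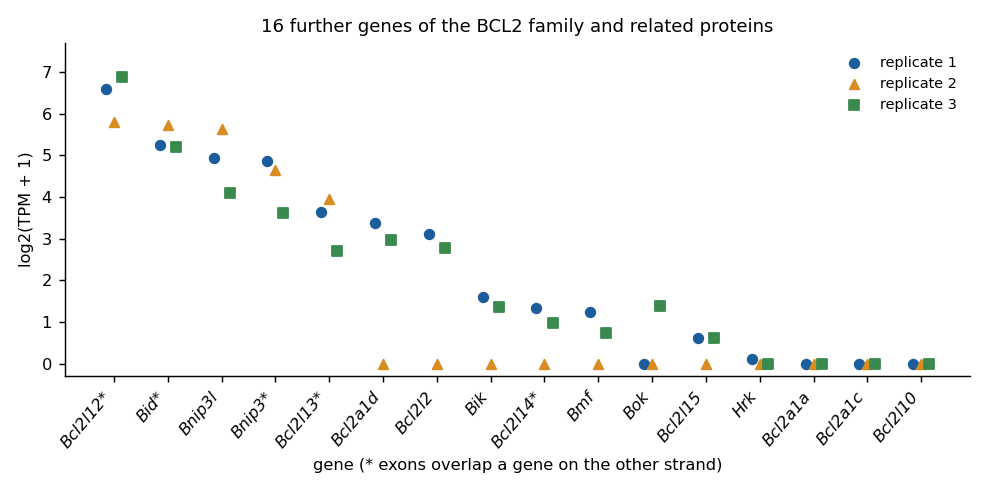
Level on the log2(TPM + 1) scale (vertical axis) of 16 further genes of the family or named after it (horizontal axis), 1 symbol per library. Bcl2l12, Bid, Bnip3l, Bnip3 and Bcl2l13 have means over 10 TPM, and Bcl2a1a, Bcl2a1c and Bcl2l10 are at 0 in all libraries.

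Downstream of the pores, all 12 genes of the apoptosome, caspases and released proteins reached 1 TPM. Cycs, the cytochrome c gene, had 125, 166 and 58.7 TPM in replicates 1, 2 and 3 (117 ± 54.1). Apaf1, the scaffold that cytochrome c assembles, had 7.68 ± 1.08 TPM. Casp9 (overlapped), which APAF1 activates, had 2.02, 4.47 and 1.42 TPM in replicates 1, 2 and 3, on 22, 3 and 15 counts. Without replicate 2 the mean of Casp9 was 1.72 TPM. Casp8, the initiator at death receptors, had 80.9 ± 39.8. Endog (540 ± 125) and Htra2 (373 ± 103) were highest, and both are overlapped on the other strand. All 6 genes of caspase inhibition also reached 1 TPM, with Birc5, also a mitotic gene, at 48.7 ± 17.4, Birc3 at 27.3 ± 11.6 and Xiap at 10.2 ± 2.40. The channel genes Vdac1 (138 ± 39.9), Vdac2 (overlapped, 54.9 ± 23.7) and Vdac3 (21.3, 14.3 and 9.33 TPM in replicates 1, 2 and 3) were all counted.

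Upstream, the ubiquitin ligase Huwe1, which marks MCL1 for decay, had 31.0 ± 7.17 TPM. Usp9x, which removes such marks, had 11.3 ± 2.98, and Fbxw7, another ligase subunit for MCL1, 9.02 ± 3.87. All 8 genes of 14-3-3 proteins and dynein light chains, known partners of BAD and of BIM and BMF, reached 10 TPM, led by Ywhae at 280 ± 78.6. Of 12 transcription factors known to act on the family, 11 reached 1 TPM, led by Atf4 at 365 ± 129, Myc at 183 ± 60.1 and Ddit3 (overlapped) at 180 ± 46.7. Trp53 had 33.8 ± 11.7. Foxo3, which acts on Bcl2l11 and Bbc3, had 7.19 ± 3.24, and the p53 relative Trp73 had 1, 0 and 0 counts. The receptor chain Il2ra had 559 ± 166 TPM, above the other 4 survival cytokine receptor chains of the list, and Il7r had 34.9 ± 15.8.

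In all, 56 of 65 genes in these lists reached 1 TPM. Of 54 tested between libraries, 12 passed, against 29.5% of all genes. Among these, Bcl2l12, Htra2 and Endog, all overlapped, were highest in replicate 3, and Casp8, Vdac2 (overlapped) and Il2rg in replicate 1. Bnip3l, Cycs, Birc2, Dynll2 and Foxo1 (overlapped) were highest in replicate 2. Without replicate 2, 1 of 57 passed (Endog), against 14.9% of all genes.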

How the data were processed

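RNA sequencing libraries of 3 Th1 samples were used. Per the file headers, the deposited values were raw fragment counts per gene, made with featureCounts 1.4.6-p4 over exons of GENCODE mouse release 13, both ends mapped and strand setting 1. The labels give the build as mm10. The deposited exon length in bases per gene was used as well. The version of the aligner is not given in the sources used here. Labels name the assay total RNA and link a library protocol whose name has polyA.

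Gene names, types and transcripts came from GENCODE release 21 (GRCm38), matched by identifier without version for 50376 of 50600 genes. TPM was computed from counts and exon length. A gene was called overlapped when exon bases lay in an exon on the other strand (8189 genes, 16.2%). The floor was 3 counts, and intervals are exact Poisson intervals at 95% that cover counting error only, since PCR copies of a fragment count separately.

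The chi-square test used TMM-scaled library sizes (edgeR 4.0.16), a mean count of at least 10, and Benjamini-Hochberg adjustment over all genes tested. It holds counting error only, so it compares libraries. With 1 group there was no contrast for a quasi-likelihood test. Pairs were tested with limma 3.58.1 on log2(TPM + 1), which shrinks ratios of low genes. Both were tested on simulated data. Alternatives included DESeq2 1.42.0 size factors. Every member is named. Other genes came from fixed lists (all are described by counts, and some of their genes are not reported here by name) and from genes sharing exon bases with a member. Members, lists and pairs were chosen with earlier results of these data known. No search for genes of like pattern was made, since 3 replicates of 1 group hold none over conditions.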

Additional observations from a re-analysis of the deposited data

How the results depend on the processing

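The order of the 10 members by mean was the same on 4 scales (TPM, RPKM from library totals, TMM-scaled RPKM and TPM over genes without overlap). The levels were not: Mcl1 averaged 82.4, 40.5, 40.2 and 244 in these units. Of the members' alternative levels, 22 moved by more than the SD between libraries while 38 did not. All of the 22 were changes of unit or of the genes scaled over. Most of the 38 were means with 1 replicate left out, which cannot move by as much as the SD, so this tally does not measure stability. Each scale divides by the same exon length and by 1 constant per library, so the order within a library could not change. In TMM-scaled CPM, which are not divided by length, Bcl2a1b (7.84 and 5.13) was below Bcl2l11 (9.96 and 7.54) in replicates 1 and 3. The count of members at a mean of 1 TPM or more was 10, 10 with the median over libraries, 8 at a threshold of 10 TPM and 7 of 7 on genes without overlap. Leaving out a replicate gave 9 to 10. The 1 member that differed between libraries was also called with DESeq2 size factors, library totals, no filter on low counts and a ratio of 1.5. With a minimum mean count of 100, which leaves Pmaip1 out, 0 of 5 members passed (34.1% of all genes did), and 0 of 7 on genes without overlap (15.5%). It was 0 of 10 with TMM over genes of a mean count of at least 10, added after the data were seen (28.9%). Leaving out replicate 1 gave 0 of 9 (18%), leaving out replicate 2 gave 0 of 10 (14.9%), and leaving out replicate 3 gave 0 of 10 (11.8%), a range of 0 to 0. In these counts the cause was not tested.

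Of the 11 pairs, 9 passed with a pseudocount of 0.1 and with no filter, and 6 of 7 tested at a mean count of at least 100. On genes without overlap 5 passed, because only 5 pairs could be tested. Leaving out a replicate gave 6 to 9, with Bcl2a1b over Bcl2 not tested without replicate 1. In 0 of these settings did a tested pair change direction. No paired analysis was possible because there is 1 group. Depth limits replicate 2 most: 3 counts there equal 28.4 TPM in Bcl2a1b and 2.89 TPM in Bcl2l11.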
